A study of Homo sapiens with 9 samples.

Results

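The sites described here are CCCGGG sequences of intermediate methylation that stand in thinly spaced DNA, away from sites measured as unmethylated. A site was taken on the 22 autosomes when all 9 libraries gave a value and the mean of the 9 values was from 20% to under 80%. At most 2 other listed CCCGGG sites could lie within 1000 bases, and no site with all 9 values and a mean under 5% within that distance. Among the 382289 listed sites, any measurement existed for 75645 and a full set of 9 for 59751. Of the 59751 complete sites, 58310 were autosomal and 14231 of those were of 20 to 80%. The rule left 9616 sites, 16.1% of the complete sites and 67.6% of the autosomal intermediate ones. They are called sparse intermediate sites below.

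The study used HEK293T cells, an established embryonic kidney line, transfected with plasmids of the pIRES type, and took DNA after 4 days. The groups were TET1-FL, TET1-ALT and empty vector, with 3 libraries each. The assay was DREAM (digital restriction enzyme analysis of methylation), in which the enzyme SmaI opens unmethylated CCCGGG copies and XmaI then opens the methylated copies, so that the end of each fragment records the state of its site. The labels do not give the promoter of the plasmids, the share of cells that took them up or the amount of each TET1 form made, and they do not say whether replicates were separate cultures, so p-values measure the spread between these libraries, which may be technical. The labels give the same transfection protocol for all groups, empty vector included. TET1-FL is read here as the full-length form, and the labels say of TET1-ALT only its name, beside a series title about an isoform lacking a CXXC domain.

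TET1 oxidises the methyl group of methylated cytosine in DNA, which can lead to loss of the mark, and its CXXC domain binds CpG-rich DNA without methylation. Most CpGs in a mammalian genome are highly methylated, while those in CpG islands at promoters are mostly unmethylated. A methylation percentage is a share of DNA copies, so an intermediate value can arise from cells that differ, from alleles that differ or from both, and a single percentage does not separate these. The percentages also do not separate oxidised forms of the mark.

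The TET1-FL libraries measured 66010, 69784 and 72340 sites, the TET1-ALT libraries 68830, 69301 and 69739, and the empty vector libraries 66466, 66389 and 61549. Per the labels each value rests on at least 20 reads, and the number above that minimum is unknown.

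The sites leaned towards the methylated end of the range that chose them. Their mean was 56.9% and their median 60.8% over the 9 libraries. By steps of 10 points from 20% upwards they numbered 1001, 1036, 1195, 1444, 1928 and 3012, so that 31.3% lay from 70 to 80%. All 9 values lay from 20 to under 80% at 7366 sites (76.6%), while 1740 sites had at least 1 value of 80% or more and 510 had at least 1 under 20%. These counts describe what the rule selected.

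The bounds did not fall at gaps in the data. The site nearest above the lower bound, at position 129547615 of chromosome 2 (all positions are on hg19), had a mean of 20.01%, and the nearest site excluded by that bound, chromosome 1 position 46871943, had 19.98%. At the upper bound the member on chromosome 11 at position 3217803 had 79.99%, against exactly 80% for the excluded site on chromosome 14 at position 105363779.

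Replicate libraries differed more at these sites than at more methylated ones. The median SD between replicates of a group was 2.98 percentage points (quartiles 2.14 and 4.26) over the 9616 sites, against 2.68 points at the other 4615 intermediate autosomal sites and 2.07 points at 9363 sparse sites of 80 to 95%. The range over all 9 libraries had a median of 9.56 points, was under 10 points at 5181 sites (53.9%) and reached 30 points or more at 127 (1.32%). Site levels correlated at 0.934 to 0.961 between replicates of a group and at 0.936 to 0.960 between libraries of different groups, across the same sites.

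Some sites near the middle of the scale held their level in every library. The steadiest of those from 45 to 55% was on chromosome 5 at position 1164520, with 49.5%, 48.3% and 48.1% in TET1-FL, 46.3%, 47.7% and 47.4% in TET1-ALT and 47.6%, 48.6% and 48.6% in empty vector libraries. The groups overlapped, and the SD over all 9 values was 0.904 points. Sites on chromosome 19 at position 5840572 (mean 45.9%, SD 1.02 points) and on chromosome 9 at position 139523610 (mean 48.2%, SD 1.07 points) were almost as steady.

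The widest range was set within a single group. The site on chromosome 1 at position 228359588, chosen after its values were seen, had 62.8%, 59.8% and 58.0% in TET1-FL, 66.4%, 62.7% and 68.2% in TET1-ALT and 66.0%, 80.5% and 24.5% in empty vector libraries. Both the highest and the lowest of its values came from the empty vector group, and its range of 56.0 points was the widest of the 9616 sites.

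**Figure D1:**
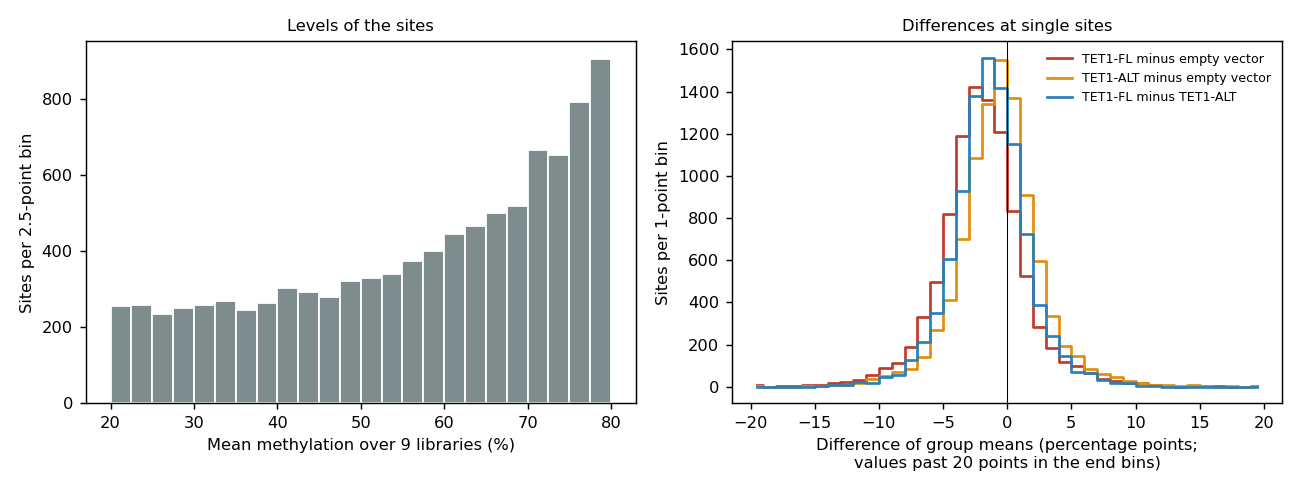
Left, the number of sparse intermediate sites by mean methylation over 9 libraries, in percent, per bin of 2.5 points. Right, the number of sites per 1-point bin of the difference between group means, in percentage points, for TET1-FL against empty vector, TET1-ALT against empty vector and TET1-FL against TET1-ALT, with differences beyond 20 points in the end bins. The counts climb towards 80%, and the TET1-FL curve against empty vector is centred near its median of -2.01 points.

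The share of sites with values varied with the distance to the next site. DREAM sequences fragments with a CCCGGG site at each end, and per the labels the gel slices held 250 to 350 and 350 to 500 bp. Of autosomal sites whose nearest neighbour was 100 to 150 bases away, 83.3% had all 9 values. That share was 56.0% at 300 to 400 bases, 39.4% at 500 to 600, 6.01% at 600 to 700 and 0.327% at 700 to 1000 bases. The median distance of sparse intermediate sites to the nearest listed site was 311 bases (quartiles 194 and 445), and 9483 (98.6%) had one within 700 bases. Exactly 1 neighbour within 1000 bases was listed for 6012 sites (62.5%), 2 for 3497 (36.4%) and none for 107 (1.11%). The isolated CCCGGG sites of the genome are therefore nearly absent from the values described here.

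**Figure D2:**
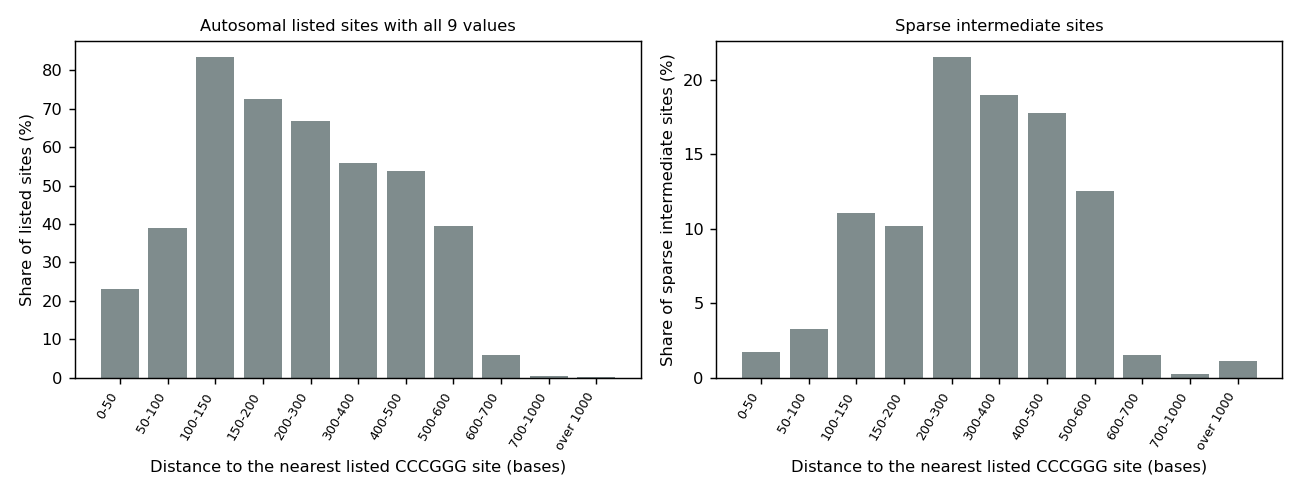
Share of listed autosomal CCCGGG sites with a value in all 9 libraries, in percent, by the distance in bases to the nearest other listed site. The share is highest at 100 to 150 bases and falls to 6.01% at 600 to 700 bases.

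Nearest neighbours often had another level. Of the 9509 sites with a neighbour within 1000 bases, 7152 had a nearest site with all 9 values. That nearest site was itself of 20 to 80% in 3926 cases (54.9%), of 80 to 95% in 2222 (31.1%), of 95% or more in 405 (5.66%) and of 5 to 20% in 599 (8.38%). Sites under 5% could not occur there, since the rule excluded them. For 2357 sites (24.8%) the nearest site lacked all 9 values, so the rule did not assess whether it was unmethylated.

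Where both sites of a nearest pair were sparse intermediate sites, which held for 2004 pairs, the median difference between their levels was 13.9 points. The levels of the pair differed by under 10 points in 774 pairs (38.6%). Across pairs the levels correlated at r = 0.189, with both sites limited by the rule to the same range. Their differences between TET1-FL and empty vector correlated at r = 0.102, and both were lower in TET1-FL in 1237 pairs (61.7%) and both higher in 130 (6.49%). Over all 5447 nearest pairs with at least 1 sparse intermediate site these shares were close, at 59.1% and 7.16%. Of single sparse intermediate sites 76.8% were lower in TET1-FL, so many pairs with both sites lower do not show that neighbours move together. Neighbouring sites share fragments and libraries, so these are descriptions of the pairs.

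The main comparison asks whether TET1-FL lowers methylation where part of the DNA copies are methylated. Mean methylation over the 9616 sites was 55.4%, 56.2% and 56.0% in the TET1-FL libraries, against 58.0%, 58.1% and 57.3% in the empty vector libraries. Every TET1-FL library lay below every empty vector library. The group means were 55.8 ± 0.40% in TET1-FL and 57.8 ± 0.45% in empty vector (SD, n = 3 each), a difference of -1.97 points, with pairwise differences between libraries from -2.77 to -1.14. Relative to the empty vector level this is -3.41%. The two-sided exact permutation test gave p = 0.1, the smallest that 20 assignments of 3 against 3 libraries allow, and 0.15 after adjustment over the 3 comparisons between groups.

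The deposited percentages were adjusted with spiked-in standards, DNA of set methylation, so the standards' own levels are no independent check. Over all 18 standard sites the mean was 44.1 ± 0.084% in TET1-FL and 44.0 ± 0.057% in empty vector libraries (SD, n = 3 each), a difference of 0.088 points (exact permutation p = 0.3, two-sided), and over the 13 standard sites of 20 to 80% it was 0.202 points (exact permutation p = 0.1). Sites of 80% or more were also lower in TET1-FL, and when each library was centred on them the difference at sparse intermediate sites was -1.03 points (exact permutation p = 0.1, two-sided).

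TET1-ALT did not separate from empty vector. Its libraries had means of 58.2%, 57.0% and 56.3%, against 58.0%, 58.1% and 57.3% in empty vector. Replicate 1 of TET1-ALT lay just above the highest empty vector library, and the other two lay below all of them. The group mean of 57.2 ± 0.94% in TET1-ALT differed from the empty vector mean of 57.8 ± 0.45% by -0.65 points (pairwise -1.85 to 0.86, exact permutation p = 0.4, two-sided, n = 3 each, adjusted 0.4). Without TET1-ALT replicate 1 the difference was -1.15 points, and without TET1-ALT replicate 3 it was -0.22 points.

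TET1-FL was also lower than TET1-ALT, with 55.4%, 56.2% and 56.0% in TET1-FL against 58.2%, 57.0% and 56.3% in TET1-ALT libraries. The groups did not overlap, although the highest TET1-FL and the lowest TET1-ALT library were 0.14 points apart. The difference was -1.32 points (pairwise -2.78 to -0.14, exact permutation p = 0.1, two-sided, n = 3 each, adjusted 0.15). It was -0.82 points without TET1-ALT replicate 1 and -0.639 points after the same centring (exact permutation p = 0.3, two-sided). The comparisons share libraries in pairs and are not independent of each other.

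**Figure D3:**
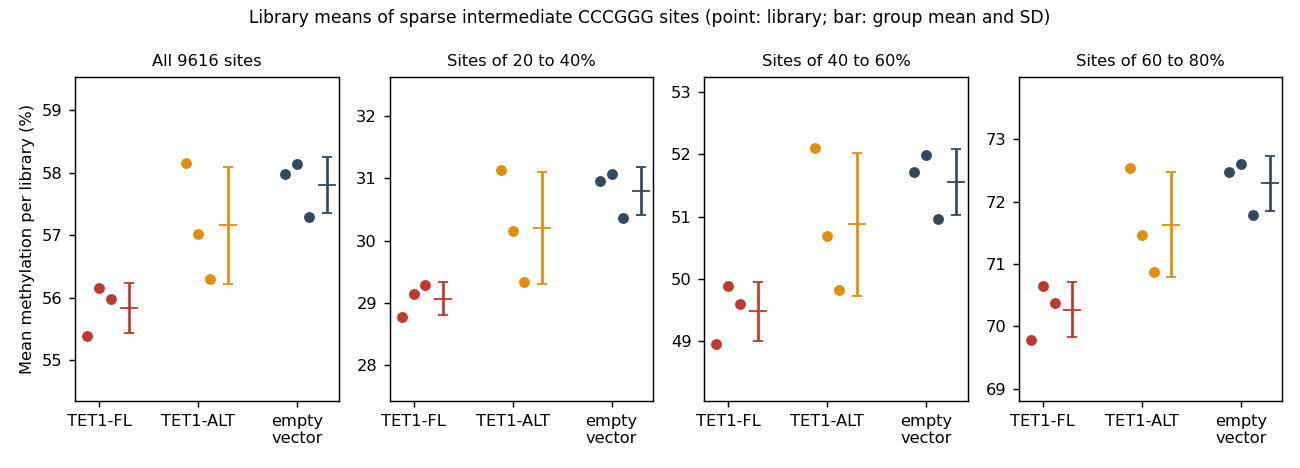
Mean methylation in percent of each library over all sparse intermediate sites and over bands of their 9-library mean, for TET1-FL, TET1-ALT and empty vector. Points are libraries and bars are group means with SD (n = 3). The TET1-FL points lie below the empty vector points in each panel, while TET1-ALT replicate 1 lies within or above the empty vector range.

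TET1-FL was lower than empty vector in every band of the range. At 2037 sites of 20 to 40% the means were 29.1 ± 0.26% in TET1-FL and 30.8 ± 0.38% in empty vector, a difference of -1.73 points (pairwise -2.29 to -1.08). At 2639 sites of 40 to 60% they were 49.5 ± 0.48% in TET1-FL and 51.6 ± 0.53% in empty vector (-2.07 points, pairwise -3.03 to -1.08). At 4940 sites of 60 to 80% they were 70.3 ± 0.44% in TET1-FL and 72.3 ± 0.44% in empty vector (-2.02 points, pairwise -2.82 to -1.14). In each band no TET1-FL library reached an empty vector library (exact permutation p = 0.1, two-sided, adjusted 0.1 over the 3 bands). As a share of the empty vector level the change was -5.60% in the lowest band, -4.02% in the middle and -2.80% in the highest.

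The number of neighbours divided the sites very unequally. With 1 listed neighbour within 1000 bases the difference between TET1-FL and empty vector was -1.99 points, and with 2 it was -1.98 points (both exact permutation p = 0.1, two-sided, n = 3 libraries each, adjusted 0.15). At the 107 sites with none it was -1.11 points (pairwise -2.41 to 0.32, p = 0.2 by the same exact test, adjusted 0.2), and there TET1-FL, with 54.0%, 55.2% and 54.4%, overlapped empty vector, with 56.4%, 55.6% and 54.9%. Without empty vector replicate 1 the difference at these sites was -0.726 points. Whether isolated sites differ from the others was not tested.

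No autosome departed from this direction in TET1-FL. On each of the 22 autosomes, which held 130 to 879 sparse intermediate sites, TET1-FL stayed below empty vector in every pair of libraries, with differences of -2.33 points (chromosome 10) to -1.46 points (chromosome 5). TET1-ALT was lower than empty vector in its mean on all 22 autosomes, by -0.94 points (chromosome 10) to -0.14 points (chromosome 18), and its libraries overlapped the empty vector libraries on every one. TET1-FL lay below TET1-ALT without overlap on 15 of the 22. Chromosomes are not replicates, since all come from the same 9 libraries.

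The difference was also taken by position along the chromosome and by wider CCCGGG density. At 659 sites within 1 Mb of the first or last listed site of a chromosome TET1-FL differed from empty vector by -1.84 points, against -1.98 points at the other 8957. By the number of listed sites in the surrounding Mb, the difference was -1.80 points in the sparsest tercile (up to 199 sites per Mb), -2.02 points in the middle and -2.11 points in the densest (over 361). The distance to the nearest listed site gave -2.00 to -1.94 points over its classes up to 1000 bases, against the -1.11 points given above for the 107 sites farther from any other. These are values of subsets of the same libraries, without a test of the differences between them.

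Sparse intermediate sites were not set apart from other intermediate sites beyond the spread between libraries. Dense intermediate sites, with 3 or more neighbours and no unmethylated site nearby, differed by -1.66 points between TET1-FL and empty vector over 3059 sites. The gap between this and the sparse intermediate sites was -0.312 points (pairwise -0.584 to 0.113, exact permutation p = 0.2, two-sided, n = 3 libraries each, adjusted 0.3 over 3 gaps). Intermediate sites within 1000 bases of an unmethylated site differed by -1.70 points over 1556 sites, with a gap of -0.271 points (pairwise -0.893 to 0.227, exact permutation p = 0.5, adjusted 0.5). That gap was -0.110 points without TET1-FL replicate 1, -0.407 without TET1-FL replicate 2 and -0.121 without empty vector replicate 2.

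Against sparse sites of 80 to 95% the gap was wider in points. Those 9363 sites had 88.0% in TET1-FL and 89.2% in empty vector libraries, a difference of -1.19 points, and the gap to the sparse intermediate sites was -0.784 points (pairwise -1.18 to -0.455, exact permutation p = 0.1, two-sided, adjusted 0.3). Its direction depended on the scale, since on a log2 ratio of methylated to unmethylated percent, with 1 point added to each, the gap was 0.043, meaning a smaller change at the sparse intermediate sites.

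The gap to dense sites was widest at low levels. From 20 to 30% TET1-FL differed from empty vector by -1.54 points at sparse and -0.88 points at dense intermediate sites, and from 30 to 40% by -1.90 and -1.22 points. The gaps of -0.662 points (pairwise -1.13 to -0.164) and -0.683 points (pairwise -1.32 to -0.048) were negative in every pair of libraries (exact permutation p = 0.1, two-sided), with an adjusted p of 0.4 over the 12 gaps compared. The same held from 70 to 80%, with a gap of -0.228 points (pairwise -0.408 to -0.081, exact permutation p = 0.1, adjusted 0.4). From 60 to 70% the differences were -2.18 points at sparse and -2.14 points at dense sites.

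**Figure D4:**
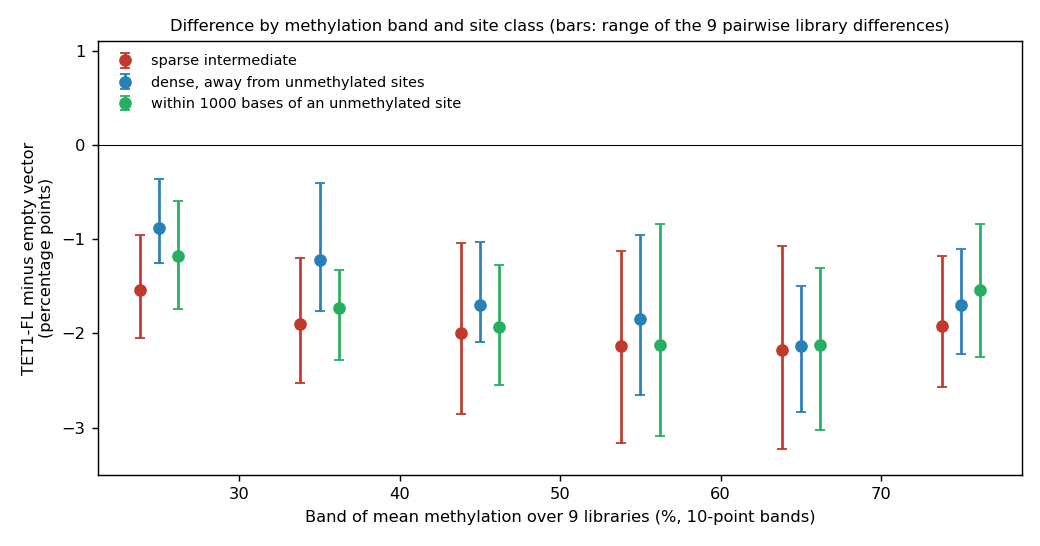
Difference between TET1-FL and empty vector in percentage points by 10-point band of mean methylation, for sparse intermediate sites, dense intermediate sites away from unmethylated sites and intermediate sites near unmethylated ones. Bars span the 9 pairwise differences between libraries, and the classes lie furthest apart from 20 to 40%.

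At single sites most differences stayed inside the spread between libraries. No sparse intermediate site was called between TET1-FL and empty vector by limma with Benjamini-Hochberg adjustment over all 59751 complete sites, for which the share called was 0.0% (smallest adjusted p among the 9616 sites 0.287). Without adjustment limma gave p under 0.05 at 1184 sites lower and 87 higher in TET1-FL, together 1271, and at 1354 without trend and robust moderation. After centring on sites of 80% or more the unadjusted counts were 613 lower and 179 higher, and 275 sites were called (212 lower and 63 higher). Without centring, the unadjusted counts were 12.3% lower and 0.905% higher as shares of the sparse intermediate sites. The matching uncentred shares were 9.72% and 1.11% of all complete sites, and 12.7% and 1.34% of the other intermediate sites. For the centred counts no share over all complete sites was computed. Centring moved every site of a library by the same points, including the 22785 complete sites of under 5%, and the adjustment ran over those too. The total at an unadjusted limma p under 0.05 fell from 1271 to 792 with centring, while the calls rose to 275. The 275 are therefore not read as changes at single sites, and the cause of the rise was not tested.

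The direction was shared widely all the same. The median difference between TET1-FL and empty vector was -2.01 points (quartiles -3.80 and -0.16), and 7384 sites (76.8%) were lower in TET1-FL, against 66.4% of all complete sites and 75.7% of the other intermediate sites. All 3 TET1-FL values were below all 3 empty vector values at 1651 sites (17.2%; 14.9% of all complete and 17.6% of other intermediate sites) and above them at 146 (1.52%; 2.13% and 1.89%). With group means at least 10 points apart as well, 107 sites were below (1.11%; 0.32% and 0.867%) and 22 above (0.229%; 0.117% and 0.477%). The complete sites include 22785 of under 5%, where a large decrease cannot occur.

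The differences scattered little beyond what replicates give. Their SD over the 9616 sites was 3.45 points, against 3.33 points computed from the replicate spread of both groups, which leaves an SD of 0.875 points. For TET1-ALT against empty vector the SD was 3.30 points, against 3.32 points from the replicate spread.

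In the other 2 comparisons no sparse intermediate site was called by limma either, with smallest adjusted p of 0.652 for TET1-ALT against empty vector and 0.830 for TET1-FL against TET1-ALT, and 0.0% called over all sites. Without adjustment 581 sites had a limma p under 0.05 in the first, 424 lower (4.41%) and 157 higher (1.63%) in TET1-ALT. Over all complete sites, the background here, the shares were 5.49% and 1.73%, and over the other intermediate sites 4.40% and 1.78%. In the second 743 sites did, 652 lower (6.78%) and 91 higher (0.946%) in TET1-FL. The background was 4.46% and 1.1%, and the other intermediate sites gave 6.15% and 1.04%. Without trend and robust moderation the totals were 654 in the first and 840 in the second. After the same centring the unadjusted counts were 346 lower and 222 higher in the first and 335 lower and 154 higher in the second. No background was computed for the centred counts. For TET1-ALT against empty vector the lower count was 249 without TET1-ALT replicate 3, and for TET1-FL against TET1-ALT it was 401 without TET1-ALT replicate 1. TET1-ALT libraries lay below the empty vector libraries at 722 sites (7.51%, background 10.1%) and above at 279 (2.90%, background 3.14%), and the TET1-ALT mean was lower at 5796 sites (60.3%, background 56.3%). TET1-FL libraries lay below TET1-ALT libraries at 1096 sites (11.4%, background 7.36%) and above at 185 (1.92%, background 1.94%). The TET1-FL mean was lower at 6746 sites (70.2%, background 60.4%). The other intermediate sites gave 10.99% below, 2.06% above and 68.6% with a lower TET1-FL mean. For TET1-ALT against empty vector they gave 8.299% below, 3.27% above and 60.3% with a lower TET1-ALT mean. The background includes 22785 sites of under 5%. The excess over it in TET1-FL against TET1-ALT is therefore not particular to sparse intermediate sites.

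The following sites had the largest differences among those without overlap between the groups, at least 1000 bases apart, and were picked by these values, which are therefore descriptions. The most negative difference between TET1-FL and empty vector was on chromosome 22 at position 37710110, with 46.2%, 75.7% and 65.7% in TET1-FL, 87.9%, 76.3% and 68.1% in TET1-ALT and 89.1%, 80.6% and 86.0% in empty vector libraries. The difference of -22.7 points rested in part on TET1-FL replicate 1, without which it was -14.6. On chromosome 13 at position 64416817 TET1-FL had 80.9%, 75.8% and 41.6%, TET1-ALT 75.8%, 78.0% and 74.4% and empty vector 84.1%, 89.2% and 89.1%. The lowest value came from TET1-FL replicate 3, and the difference of -21.4 points was -9.12 without it.

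The next differences were carried by all 3 TET1-FL libraries. On chromosome 12 at position 266641 TET1-FL had 48.8%, 36.8% and 51.9%, TET1-ALT 55.3%, 57.8% and 55.4% and empty vector 65.5%, 60.9% and 73.3%. TET1-ALT stood between the other groups without overlap, and the difference between TET1-FL and empty vector was -20.7 points (SE 4.37, limma adjusted p 0.381). On chromosome 16 at position 67273963 TET1-FL had 43.0%, 51.6% and 46.1%, TET1-ALT 57.4%, 46.6% and 45.7% and empty vector 69.6%, 57.05% and 73.6%, a difference of -19.9 points between TET1-FL and empty vector. Here 2 TET1-ALT libraries were as low as those of TET1-FL.

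Sites higher in TET1-FL included some that were higher with both TET1 forms. On chromosome 10 at position 3111356 TET1-FL had 47.1%, 51.2% and 47.9%, TET1-ALT 44.15%, 48.4% and 56.4% and empty vector 12.5%, 34.8% and 37.2%. The difference from empty vector was 20.6 points for TET1-FL and 21.5 for TET1-ALT, and 12.7 and 13.6 without empty vector replicate 1, the lowest library. On chromosome 4 at position 5958822 TET1-FL had 44.2%, 52.1% and 53.3%, TET1-ALT 50.7%, 52.0% and 44.2% and empty vector 31.9%, 37.5% and 33.9%. All 6 TET1 libraries lay above the empty vector libraries, with a difference of 15.4 points for TET1-FL (SE 3.07, limma adjusted p 0.381). Since the empty vector libraries enter both comparisons, these differences are not independent observations.

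At the remaining sites of this kind TET1-ALT stood between the other groups in its mean. On chromosome 11 at position 128560463 TET1-FL had 58.1%, 58.8% and 68.7%, TET1-ALT 55.02%, 59.3% and 51.1% and empty vector 39.1%, 50.5% and 47.15%, a difference of 16.3 points between TET1-FL and empty vector. On chromosome 18 at position 33529126 TET1-FL had 62.1%, 70.8% and 66.1%, TET1-ALT 62.4%, 42.1% and 64.5% and empty vector 48.9%, 40.6% and 60.8%, a difference of 16.2 points between TET1-FL and empty vector. One TET1-ALT library was near the lowest empty vector library at the second of these sites, while 2 were near TET1-FL.

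For TET1-ALT against empty vector the most negative difference was on chromosome 3 at position 133786821, with 49.1%, 47.7% and 48.2% in TET1-ALT, against 62.1%, 77.1% and 70.1% in empty vector libraries, a difference of -21.4 points. TET1-FL had 40.9%, 58.6% and 50.4% there. On chromosome 10 at position 134095227 TET1-ALT had 51.5%, 49.0% and 28.8% and empty vector 66.0%, 52.3% and 69.3%, and the difference of -19.4 points was -12.2 without TET1-ALT replicate 3. The most positive difference, 21.9 points, was on chromosome 1 at position 2368659, with 58.4%, 52.1% and 37.5% in TET1-ALT and 31.5%, 30.6% and 20.07% in empty vector.

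Between the TET1 forms the largest differences went both ways. On chromosome 7 at position 97362204 TET1-FL had 28.5%, 23.3% and 29.7%, TET1-ALT 51.8%, 34.3% and 45.6% and empty vector 36.3%, 31.9% and 37.2%, so that TET1-FL was 16.8 points lower than TET1-ALT. On chromosome 11 at position 120592529 TET1-FL had 27.7%, 17.7% and 5.31%, against 34.7%, 32.7% and 36.7% in TET1-ALT, a difference of -17.8 points. Empty vector libraries spread from 15.5 to 40.4% there. On chromosome 6 at position 40554741 TET1-FL had 39.8%, 27.5% and 31.7%, TET1-ALT 19.2%, 16.2% and 17.8% and empty vector 23.7%, 24.0% and 36.5%, a difference of 15.2 points between TET1-FL and TET1-ALT. On chromosome 1 at position 46914114 TET1-FL had 85.9%, 90.1% and 87.5%, TET1-ALT 79.8%, 68.2% and 73.3% and empty vector 76.0%, 70.8% and 79.3%. TET1-FL exceeded both other groups there, by 14.1 points over TET1-ALT.

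Sites were also averaged in fixed windows of 1 Mb. In 601 windows with at least 5 sparse intermediate sites, which held 7645 of them, TET1-FL was lower than empty vector in 575 (95.7%), with a median difference of -1.98 points (-6.88 to 2.14). TET1-FL libraries lay below all empty vector libraries in 262 windows (43.6%) and above in 4. No window was called by limma (0.0%, smallest adjusted p 0.0548), while 220 had an unadjusted p under 0.05, all lower in TET1-FL (36.6%). Without trend and robust moderation limma called 1 window and gave 209 at an unadjusted p under 0.05. That unadjusted count was 134 without TET1-FL replicate 1, and 95 (89 lower and 6 higher) after centring on sites of 80% or more. Windows of other sites were not counted at 5 or more sites, so these window shares have no background beside them and do not set the sparse intermediate sites apart.

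The count of called windows turned on how many sites a window had to hold. With at least 10 sites, which left 273 windows and 5510 sites, 112 windows (41.0%) on 19 chromosomes were called by limma between TET1-FL and empty vector, all lower in TET1-FL, by a median of -2.71 points (-5.16 to -2.02). The 161 others had a median of -1.60 points. In windows of at least 10 sites the same fit called 42.3% for the other intermediate sites, 18.5% for sparse sites of 80 to 95% and 15.6% for all complete autosomal sites, so the share was near that of intermediate sites elsewhere. The count of 112 was 110 without trend and robust moderation, 35 without TET1-FL replicate 1, 83 without TET1-FL replicate 2 and 67 without TET1-FL replicate 3. Without empty vector replicates 1, 2 and 3 in turn it was 53, 49 and 140. Without TET1-ALT replicates 1, 2 and 3 in turn it was 145, 109 and 124. It was 4 after centring libraries on sites of 80% or more. These shares for other sites and alternatives were added after the counts were seen.

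The largest fall among these windows was at the start of chromosome 20, bases 1 to 1000000, where 10 sites averaged 61.6 ± 0.196% in TET1-FL, 65.2 ± 0.684% in TET1-ALT and 66.8 ± 1.23% in empty vector (SD, n = 3 each). The difference between TET1-FL and empty vector was -5.16 points (SE 0.948, limma adjusted p 0.000443). On chromosome 11, bases 76000001 to 77000000, 19 sites averaged 57.5 ± 0.494% in TET1-FL, 60.8 ± 1.80% in TET1-ALT and 62.6 ± 1.01% in empty vector, a difference of -5.11 points (limma adjusted p 0.000514). On chromosome 19, bases 46000001 to 47000000, 13 sites averaged 54.6 ± 0.258% in TET1-FL, 55.4 ± 0.700% in TET1-ALT and 58.6 ± 0.537% in empty vector, a difference of -3.99 points (limma adjusted p 0.000975).

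Wider spreads marked the others of the 6 largest falls. The window of chromosome 19 at bases 48000001 to 49000000 averaged 47.0 ± 1.77% in TET1-FL and 51.9 ± 1.66% in empty vector over 14 sites (-4.94 points, limma adjusted p 0.00518). The window of chromosome 11 at bases 67000001 to 68000000 averaged 59.3 ± 2.64% in TET1-FL and 64.0 ± 0.793% in empty vector over 12 sites (-4.65 points, limma adjusted p 0.00514). Another on chromosome 11, bases 117000001 to 118000000, fell by 4.05 points over 13 sites (limma adjusted p 0.00518). No called window was higher in TET1-FL, and the highest difference, on chromosome 8 at bases 11000001 to 12000000, was 0.646 points (limma adjusted p 0.541).

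The windows with most sparse intermediate sites held 67 to 75 of them. On chromosome 9 at bases 139000001 to 140000000, 75 sites averaged 57.8 ± 0.754% in TET1-FL, 59.1 ± 1.26% in TET1-ALT and 59.9 ± 0.441% in empty vector (SD, n = 3 each), a difference of -2.09 points between TET1-FL and empty vector. On chromosome 1 at bases 2000001 to 3000000, 74 sites averaged 56.2 ± 0.401% in TET1-FL, 57.4 ± 0.438% in TET1-ALT and 57.6 ± 0.483% in empty vector (-1.32 points). On chromosome 7 at bases 1000001 to 2000000, 67 sites averaged 59.2 ± 0.535% in TET1-FL, 60.9 ± 0.816% in TET1-ALT and 62.4 ± 0.390% in empty vector (-3.21 points, limma adjusted p 0.0126). Of these 3 only the last was called.

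TET1-ALT was lower than empty vector in 441 of the 601 windows (73.4%), with a median of -0.71 points, and limma called none (0.0%, smallest adjusted p 0.801), with 34 at an unadjusted p under 0.05, 29 of them lower in TET1-ALT (4.83%), and 32 without trend and robust moderation. That count was 70 without TET1-ALT replicate 1 and 14 without TET1-ALT replicate 3. TET1-FL was lower than TET1-ALT in 548 windows, with a median of -1.35 points, and none was called (0.0%, smallest adjusted p 0.253), with 91 at an unadjusted p under 0.05, 89 of them lower in TET1-FL (14.8%), and 89 without trend and robust moderation. Here it was 34 without TET1-ALT replicate 1, 52 without TET1-FL replicate 1 and 37 after centring on sites of 80% or more. In the 273 windows of at least 10 sites both counts of calls were also 0.

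**Figure D5:**
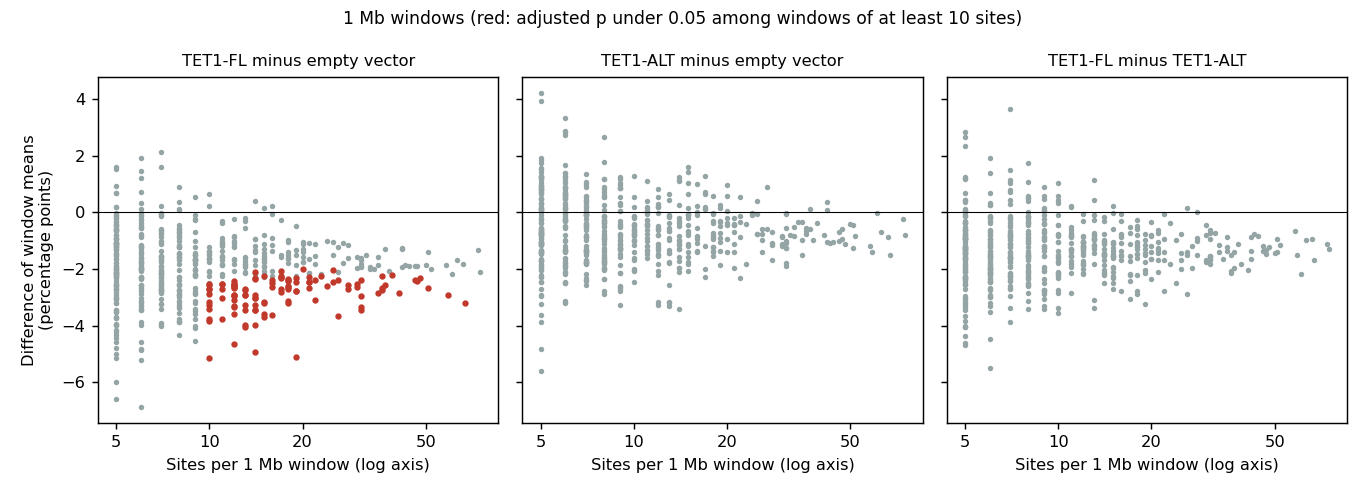
Difference in mean methylation between groups, in percentage points, for each 1 Mb window with at least 5 sparse intermediate sites, against the number of such sites in the window (log axis). Points narrow around -1.98 points for TET1-FL against empty vector and around -0.71 points for TET1-ALT against empty vector as windows hold more sites. Red points are the 112 windows called by limma among those of at least 10 sites.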

How the data were processed

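Methylation at CCCGGG sites was measured by DREAM in 9 HEK293T libraries, 3 per group. The authors deposited 1 table of percent methylation, the share of methylated reads adjusted for enzyme efficiency with spiked-in standards, per the labels' design text, with at least 20 reads per site, per the labels. Fragments were cut from gel slices of 250 to 350 and 350 to 500 bp and given 18 PCR cycles, per the labels' protocols. Sites are on hg19, per the submitters' processing notes. The aligner is not given in the sources used here. Read counts behind the percentages are likewise unknown, so counting error cannot be computed. The table's 18 measured sites on 8 sequences outside the genome were taken as standards, while the labels mention 5.

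Library means were compared by two-sided exact permutation tests, and sites and 1 Mb windows by limma 3.58.1 (R 4.3.3) on percent values over all 9 libraries, with trend, robust moderation and Benjamini-Hochberg adjustment over all complete sites or all windows. Calls had an adjusted p under 0.05. Named sites were the largest non-overlapping falls and rises, 4 each way for TET1-FL against empty vector and 2 each way otherwise, the sites at the bounds and the steadiest of 45 to 55%. Named windows were the 6 largest called falls and those with most sites. The rule names only called windows, and since none was called at 5 or more sites, it was applied at 10 or more. The sites, classes and lists were chosen with earlier results of these data known. No annotation of hg19 was used here, so genes and sequences are not given. Alternatives are given in the closing section.

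Replicate numbers of the labels did not mark libraries whose deviations from their group means went together from site to site. A shift in overall level shared by same-numbered libraries would not show in these correlations, so pairing of that kind was not tested. Deviations of same-numbered libraries correlated at -0.015 to 0.017, against -0.026 to 0.025 for different numbers.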

Additional observations from a re-analysis of the deposited data

How the results depend on the processing

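The 18 results were recomputed under the alternatives. Of the recomputed values, 286 kept their direction and side of the threshold or stayed within 1.5 times of a count. Another 2 turned round and 14 counts moved further. No permutation test here could give p under 0.05, so for those results the side of the threshold was fixed and only the direction could change. Under the replicate block the direction was fixed as well, since the differences of means are the same by construction. Where no site was called, a further bound of 10 points could not change the count. The 286 therefore include values that could not come out otherwise. The gap between sparse intermediate sites and sparse sites of 80 to 95% was 0.043 on the log2 ratio scale, and the gap to sites near unmethylated ones was 0.0083 points by medians. Libraries centred on sites of 80% or more gave 275 called sites of 9616 between TET1-FL and empty vector (212 lower, 63 higher). The share called over all complete sites was not computed under this centring, so the count cannot be called particular to these sites. The same shift was applied to sites of under 5%, which share the adjustment, and its part in the count was not tested. Called windows for the same comparison were 0 of 601 as reported for 5 or more sites. Of the same 601 they were 1 without trend and robust moderation, 5 with only the 2 groups fitted and 4 on the log scale. They were 11 of 360 with sites of 30 to 70% and 17 of 488 with neighbours counted within 2000 bases. With sites chosen by TET1-ALT libraries alone they were 20 of 595. In windows of 100 kb with at least 3 sites they were 2 of 1101, and in windows of 10 or more sites 112 of 273. Apart from the last, no share for windows of other sites was computed under these settings. The cause of these changes was not tested, and the number of windows entered differs between the settings.

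Leaving out 1 library at a time gave -2.23 to -1.75 points between TET1-FL and empty vector, -1.15 to -0.22 between TET1-ALT and empty vector and -1.75 to -0.82 between TET1-FL and TET1-ALT. Called windows of 5 or more sites were 0 to 5 for TET1-FL against empty vector and 0 to 1 for TET1-FL against TET1-ALT, with 1 without TET1-FL replicate 2. For TET1-FL against empty vector, called windows of 10 or more sites ranged from 35 without TET1-FL replicate 1 to 145 without TET1-ALT replicate 1. With replicate number as a block the differences of means stay at -1.97, -0.65 and -1.32 points by construction, since the groups are of equal size. The paired exact permutation p was 0.25, 0.5 and 0.25 in the same order, where 0.25 is the smallest that 8 assignments allow. Limma with the block called no site and no window of 5 or more sites, as without it. The 112 called windows of 10 or more sites were not refitted with the block. With the other classes weighted to the same 10-point bands, added after seeing the data, the gap was -0.303 points to dense sites and -0.197 to sites near unmethylated ones. Depth per site is unknown, and at 3 libraries per group no permutation test could pass 0.05.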
